A study of Mus musculus with 8 samples.

Results

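Tox, Tox2, Nr4a1, Nr4a2 and Nr4a3 were followed in bone marrow T cells of mice with and without the Runx1::Runx1t1 fusion, across Cd8 and Cd4 T cells, by the presence of a Pdcd1 UMI and by clone size. The members were taken by gene symbol, and each of the 5 symbols matched 1 of the 32285 genes counted in the gene expression libraries. The question was how these regulators of T cell activation and exhaustion stood in Pdcd1-bearing and clonally expanded T cells of the fusion-bearing marrow. The Runx1::Runx1t1 group was Runx1Runx1t1/+; Mx1-Cre mice and the control group Runx1Runx1t1/+ littermates of the same sex that lacked Mx1-Cre, which the labels call wild type. All mice were on the C57BL/6 background and had received Poly(I:C) 4 times at 5 mg/kg, and marrow was taken 4 weeks later. Their age is not given in the sources used here. There were 2 pools per group, each of 2 mice, and a pool was the unit of replication in every test. Mx1-Cre is switched on by interferon rather than by a lineage, so recombination was not restricted to 1 cell type. The sort kept DAPI-, mCherry-, CD3+ cells. Since mCherry reports the fusion in this model, the cells compared are T cells outside the reporter gate in a fusion-bearing marrow.

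TOX is an HMG-box nuclear protein that is required for CD4 lineage development in the thymus and that sustains exhausted CD8 T cells during chronic antigen exposure, and TOX2 is its paralog, known also from follicular helper T cells. NR4A1 (Nur77), NR4A2 (Nurr1) and NR4A3 (Nor1) are orphan nuclear receptors whose genes are transcribed within minutes to hours of T cell receptor signaling, downstream of calcium, calcineurin and NFAT. In chronically stimulated T cells TOX and NR4A proteins act together with NFAT, and PD-1, the product of Pdcd1, is among the receptors that mark such cells.

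Tox lies at chr4:6686353-6991557 (GRCm38, minus strand) and Tox2 at chr2:163203125-163324170 (plus strand). Nr4a1 is at chr15:101254269-101274795 (plus strand), Nr4a2 at chr2:57106830-57124003 (minus strand) and Nr4a3 at chr4:48045153-48086447 (plus strand). All of them are protein-coding in GENCODE vM21, and their identifiers there matched those of the count tables. RefSeq promoter windows were on hand for 4 of the 5 members and not for Tox. The 250 bases before a RefSeq transcript start of each Nr4a gene are shown. For Nr4a1 and Nr4a3 this start lies inside the GENCODE locus given above. They are shown because the family members moved in opposite directions below although they are read as one group of early response genes. Capitals mark matches to the searched letters on either strand.

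Nr4a1 (chr15:101266596-101266845, GRCm38.p6, plus strand): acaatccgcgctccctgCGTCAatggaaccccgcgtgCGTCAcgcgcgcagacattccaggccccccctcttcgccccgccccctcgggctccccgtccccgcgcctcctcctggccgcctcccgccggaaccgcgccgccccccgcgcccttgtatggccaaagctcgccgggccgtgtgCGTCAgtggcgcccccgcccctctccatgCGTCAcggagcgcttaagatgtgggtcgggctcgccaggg
Nr4a2 (chr2:57124004-57124253, GRCm38.p6, minus strand): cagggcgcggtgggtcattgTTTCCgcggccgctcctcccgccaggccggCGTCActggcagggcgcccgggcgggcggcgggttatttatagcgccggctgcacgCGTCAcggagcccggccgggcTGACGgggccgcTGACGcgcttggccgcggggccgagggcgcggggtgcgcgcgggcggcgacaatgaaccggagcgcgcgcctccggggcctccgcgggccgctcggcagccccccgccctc
Nr4a3 (chr4:48045055-48045304, GRCm38.p6, plus strand): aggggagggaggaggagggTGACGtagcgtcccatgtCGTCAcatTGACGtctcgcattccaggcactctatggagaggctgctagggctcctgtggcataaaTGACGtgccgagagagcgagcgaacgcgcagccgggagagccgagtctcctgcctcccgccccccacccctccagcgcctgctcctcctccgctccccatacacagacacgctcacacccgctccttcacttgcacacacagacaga

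Each of the Nr4a windows held 4 matches to TGACG, the shorter core of the cyclic AMP response element (CRE), whereas 17.8% of the 32851 RefSeq windows of that length held at least 1. This motif was added after the full CRE, TGACGTCA, which contains it, had given no match in any member's window; 1.55% of all windows held the full site. The Nr4a2 window also held 1 match to GGAAA, the NFAT core, which 55.6% of all windows held. The letters AAAGGTCA (NR4A monomer site, 1.34% of windows), TGANTCA (AP-1, 6.75%) and TGTGGT (RUNX, 14%) were absent from these 250 bases in Nr4a1, Nr4a2, Nr4a3 and the 5 Tox2 windows. Of the 5 Tox2 windows, 1 held the CRE core and 2, which overlap, the NFAT core.

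The 4 gene expression libraries held 56649 barcodes, of which 53033 were kept, and between 90958101 and 102883449 UMIs. Any pair of libraries shared 226 to 263 barcodes, 1.77% to 1.96% of the smaller one. A cell with a Cd3d, Cd3e or Cd3g UMI was called a Cd8 T cell if it also held Cd8a or Cd8b1 but not Cd4, and a Cd4 T cell in the opposite case. This gave 26856 Cd8 T cells and 7270 Cd4 T cells. Levels are given as CPM, a gene's UMIs out of all UMIs of the summed cells, scaled to 1000000. In what follows, values for the pools are given as replicates 1 and 2 of the Runx1::Runx1t1 group against replicates 1 and 2 of the control group. Between 666 and 945 of the kept cells of a library held no Cd3 UMI and were left out. The summed level of 7 myeloid genes in Cd8 T cells without a Pdcd1 UMI was 45.8 and 50.4 against 244 and 119 CPM. A Runx1t1 UMI was seen in 90 and 100 against 15 and 35 kept cells. The part of either in the results was not tested.

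Stray RNA in the droplets was gauged in 301 cells with no Cd3 UMI and at least 3 myeloid genes (median 12965.5 UMIs before thinning), with each cell thinned to 2000 UMIs. A Tox UMI was found in 1.99% of them, a Tox2 UMI in none, which allows a share of up to 0.997%, and a Nr4a3 UMI in 1.66%. The corresponding shares in Cd8 T cells without a Pdcd1 UMI were 10.6% for Tox, 0.325% for Tox2 and 10.5% for Nr4a3. Myeloid cells carried Nr4a1 in 64.5% and Nr4a2 in 11.6%. The Tox2 share over all Cd8 T cells without a Pdcd1 UMI lies under what the count of 0 in myeloid cells allows and cannot be told apart from background. In those of clones of 5 or more cells, a Tox2 UMI was seen at the thinned depth in 2.56% and 4.05% of cells in the Runx1::Runx1t1 pools, above that limit, and in none of 116 and 348 cells in the control pools (95% Wilson upper bounds 3.21% and 1.09%). A Pdcd1 UMI was seen in 0.332% of the myeloid cells at the thinned depth (1 of 301 cells, 95% Wilson interval 0.0587 to 1.86). In Cd8 T cells it was seen in 0.747% and 0.641% in the control pools (95% Wilson intervals 0.557 to 1.002 and 0.476 to 0.862). The shares in the Runx1::Runx1t1 pools were 4.78% and 18.1%. Both control shares lie within the interval of the myeloid cells, so this gauge cannot tell them apart from background. These intervals cover counting error only. The myeloid cells were taken from all 4 libraries together, so they do not gauge the control libraries alone. In the control pools, at the cells' own depth, 15.8% and 6.88% of Cd8 T cells in clones of 5 or more held a Pdcd1 UMI. The shares in clones of 1 cell were 0.989% and 0.976%.

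In Cd8 T cells, Tox, Tox2 and Nr4a2 were higher in the cells with a Pdcd1 UMI in all 4 pools, while Nr4a1 was lower in the Runx1::Runx1t1 pools and not in the control pools. Cells with a Pdcd1 UMI numbered 604 of 6833 and 2188 of 7230 against 114 of 6005 and 118 of 6788. The plot of the levels by lineage and Pdcd1 UMI shows every pool for every member.

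**Figure D1:**
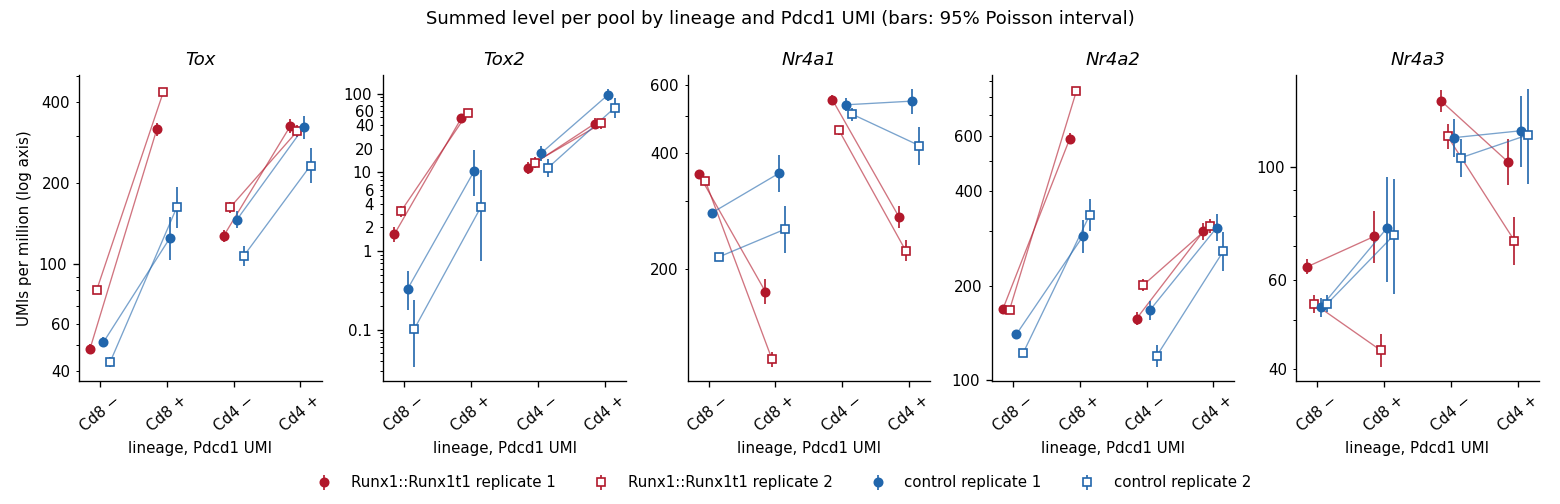
CPM (log axis) of each member in Cd8 and Cd4 T cells without (−) and with (+) a Pdcd1 UMI, 1 point per pool (red, Runx1::Runx1t1; blue, control; filled, replicate 1; open, replicate 2), with bars for the 95% Poisson interval of the counts. Tox, Tox2 and Nr4a2 climb from − to + in every pool and both lineages, whereas Nr4a1 is lower in + than in − in both Runx1::Runx1t1 pools and higher in both control pools among the Cd8 T cells.

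Tox without a Pdcd1 UMI stood at 48.4 and 80.1 against 51.2 and 43.2 CPM. With a Pdcd1 UMI it stood at 318 and 439 against 126 and 163 CPM. Each of the 4 levels with a Pdcd1 UMI was above each of the 4 without, and the Runx1::Runx1t1 pools held the highest. The log2 fold change in edgeR's quasi-likelihood test, which had a term for each pool, was 1.89 ± 0.20 (SE), adjusted p = 0.000566.

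Tox2 had the fewest UMIs of the 5. Without a Pdcd1 UMI it stood at 1.63 and 3.21 against 0.330 and 0.102 CPM, the control values resting on 14 and 5 UMIs. With a Pdcd1 UMI it stood at 48.4 and 57.2 against 10.6 and 3.68 CPM, the control values on 10 and 3 UMIs. It was higher with a Pdcd1 UMI in each pool, and its log2 fold change of 4.31 ± 0.22 (SE), adjusted p = 2.52e-05, was the largest among the members.

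Nr4a2 stood at 169 and 168 against 139.9 and 122 CPM without a Pdcd1 UMI. With one it stood at 589 and 836 against 288 and 337 CPM, and each level with was again above each level without. Its log2 fold change was 1.41 ± 0.18 (SE), adjusted p = 0.00113.

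Nr4a1, the Nr4a gene with the highest level in cells without a Pdcd1 UMI, went apart. It stood at 353 and 339 against 279 and 215 CPM without a Pdcd1 UMI and at 174 and 116 against 354 and 254 CPM with one, lower in both Runx1::Runx1t1 pools and higher in both control pools. Over the 4 pools the log2 fold change of -0.80 ± 0.29 (SE), adjusted p = 0.0843, did not pass the threshold. With control replicate 1 left out it was -1.10 with adjusted p = 0.0349. With at least 2 Pdcd1 UMIs asked of a cell it was -1.36 with adjusted p = 0.00276, and over all alternatives the adjusted p of edgeR or DESeq2 ran from 6.69e-18 to 0.298.

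Nr4a3 stood at 63.6 and 53.8 against 52.9 and 53.8 CPM without a Pdcd1 UMI and at 73.0 and 43.5 against 76.0 and 73.5 CPM with one, lower in replicate 2 of the Runx1::Runx1t1 group and higher in the other 3 pools. Its log2 fold change of -0.11 ± 0.14 (SE), adjusted p = 0.628, had no settled sign. It was 0.16 on total UMIs, 0.10 without replicate 2 of the Runx1::Runx1t1 group, and 0.37 with adjusted p = 0.00448 when each clonotype gave 1 cell per pool and class. After thinning to 2000 UMIs a cell it was -0.53 (adjusted p = 0.0136).

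Of the 5 members, 3 passed an adjusted p of 0.05 in this comparison, where 23.6% of the 13081 genes tested did (1474 higher and 1615 lower). Scaling to total UMIs in place of TMM moved the median of all genes by 0.27 on the log2 scale and gave 3981 and 859; log2 fold changes are given relative to the TMM centre, and the calls on Tox, Tox2 and Nr4a2 held under both. Cells with a Pdcd1 UMI were the shallower ones, with medians of 5806.5 and 6100.5 against 6323.5 and 5117.5 UMIs, and 7774 and 7817 against 6798 and 6903 UMIs in the cells without. At 2000 UMIs a cell, 43.7 and 58.1 against 24.5 and 29.1% of the cells with a Pdcd1 UMI held a Tox UMI, and 9.31 and 15.6 against 9.59 and 8.80% of those without. The Nr4a2 shares at that depth were 60.4 and 74.3 against 43.6 and 45.3% with and 25.2 and 24.5 against 19.96 and 17.6% without. At their own depth the Tox shares were 74.8 and 87.8 against 54.4 and 55.1% with and 28.0 and 38.3 against 26.7 and 24.9% without.

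The contrast between cells with and without a Pdcd1 UMI differed between the groups for Tox, Nr4a2 and Nr4a1. The ratio of the Tox level with a Pdcd1 UMI to that without was 6.56 and 5.48 against 2.45 and 3.78. For Nr4a2 the ratios were 3.49 and 4.98 against 2.06 and 2.77, and for Nr4a1 0.494 and 0.343 against 1.27 and 1.18. The groups did not overlap for these 3 genes, nor for the other members. The ratios were 29.7 and 17.8 against 32.0 and 35.9 for Tox2 and 1.15 and 0.809 against 1.44 and 1.37 for Nr4a3. How many of all genes were separated in this way was not counted. The lack of overlap is therefore no result about the members. The interaction of Pdcd1 status with the group was 0.97 ± 0.18 (SE), adjusted p = 0.0176, on the log2 scale for Tox. It was 0.80 ± 0.18 (SE), adjusted p = 0.0324, for Nr4a2 and -1.59 ± 0.16 (SE), adjusted p = 0.00153, for Nr4a1, of the opposite sign. For Tox2 the term was -0.54 ± 0.55 (SE), adjusted p = 0.688, and for Nr4a3 -0.56 ± 0.19 (SE), adjusted p = 0.151. Thus 3 of 5 members were called where 3.49% of the 13081 genes tested were. Clone size was not held equal between the groups in this term. Within clones of 1 cell, the Tox ratios were 3.26 and 3.91 against 2.79 and 2.85. Those of Nr4a2 were 2.57 and 3.37 against 2.39 and 2.42, and those of Nr4a1 0.700 and 0.914 against 1.16 and 1.05. The term was not fitted within those clones.

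These interaction calls rest on few control cells. Without replicate 1 of the control group, none of the 5 passed (Nr4a1 -1.53, adjusted p = 0.0517; Tox 0.67, adjusted p = 0.178; Nr4a2 0.60, adjusted p = 0.291). Without replicate 1 of the Runx1::Runx1t1 group Nr4a3 passed as well, at -0.80, adjusted p = 0.00154. Without replicate 2 of the control group, Nr4a2 was at 1.03, adjusted p = 0.0850. With 1 cell per clonotype, which left 185 and 212 against 63 and 77 cells with a Pdcd1 UMI, the Tox term was 0.51 with adjusted p = 0.227, that of Nr4a2 0.44 with adjusted p = 0.176, and that of Nr4a1 -0.65 with adjusted p = 0.00376. With the cells thinned to 2000 UMIs before a Pdcd1 UMI was sought, which left 314 and 1241 against 40 and 37 cells with one, the Tox term turned to -0.10 (adjusted p = 0.946), that of Nr4a2 was 0.01 (adjusted p = 1) and that of Nr4a1 -1.42 (adjusted p = 0.000115). With at least 2 Pdcd1 UMIs asked of a cell the Tox term was 0.76 (adjusted p = 0.0762), and with doublets kept that of Nr4a2 was 0.72 (adjusted p = 0.0649). Markers of B cells and of T cells moved with this interaction. Of 6 B cell markers, 4 were tested and 3 had a negative term past the threshold (median -2.70), and of 5 T cell markers 3 had a positive one (median 0.58). The summed level of the B cell markers was 43.2 and 49.0 against 146 and 114 CPM in the Cd8 T cells with a Pdcd1 UMI and 101 and 117 against 161 and 128 CPM in those without, and between 0 and 3 of the 6 were at 0 in a pool. Their part in the interaction was not tested.

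In Cd4 T cells, Tox, Tox2 and Nr4a2 were again higher with a Pdcd1 UMI. Without one, the levels of Tox, Tox2, Nr4a1 and Nr4a3 were above those of the Cd8 T cells in each pool, with no test of the lineages against each other. Tox stood at 127 and 163 against 147 and 107 CPM without and at 328 and 312 against 323 and 233 CPM with a Pdcd1 UMI. The log2 fold change was 1.06 ± 0.08 (SE), adjusted p = 3.03e-05. Tox2 stood at 11.5 and 13.3 against 17.6 and 11.4 CPM without and at 41.7 and 41.8 against 97.1 and 66.6 CPM with one, and here the control pools held the higher levels. Its log2 fold change was 1.97 ± 0.15 (SE), adjusted p = 3.43e-05. Nr4a2 stood at 157 and 201 against 167 and 119 CPM without and at 298 and 310.4 against 307 and 258 CPM with one, a log2 fold change of 0.79 ± 0.07 (SE), adjusted p = 0.000113. No pool went against the direction for any of these 3 genes.

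Nr4a1 in Cd4 T cells stood at 550.2 and 458 against 533 and 504 CPM without a Pdcd1 UMI and at 272 and 223 against 545 and 418 CPM with one. It was lower with one in both Runx1::Runx1t1 pools and in replicate 2 of the control group, and slightly higher in replicate 1 of the control group. The log2 fold change over the pools was -0.67 ± 0.15 (SE), adjusted p = 0.0155; it was -0.53 with adjusted p = 0.0894 without replicate 1 and -0.51 with adjusted p = 0.0646 without replicate 2 of the Runx1::Runx1t1 group. Nr4a3 stood at 135 and 115 against 114 and 104 CPM without and at 103 and 71.6 against 118 and 116 CPM with a Pdcd1 UMI, and its log2 fold change was -0.36 ± 0.12 (SE), adjusted p = 0.0760. In all, 4 of 5 members passed where 12.9% of the 11066 genes tested did (647 higher and 776 lower, or 1099 and 574 on total UMIs). The interaction with the group passed for Nr4a1, at -0.89 ± 0.11 (SE), adjusted p = 0.00220, on the log2 scale. It did not for Tox (0.05 ± 0.14 (SE), adjusted p = 0.950), Tox2 (-0.71 ± 0.21 (SE), adjusted p = 0.160), Nr4a2 (-0.17 ± 0.13 (SE), adjusted p = 0.715) or Nr4a3 (-0.59 ± 0.15 (SE), adjusted p = 0.0865), so 1 of 5 members was called where 1.5% of the 11066 genes tested were. Without replicate 1 of the Runx1::Runx1t1 group Nr4a3 passed too, at -0.73, adjusted p = 0.0102. With 1 cell per clonotype the Nr4a1 term was -0.41 with adjusted p = 0.591, with thinning to 2000 UMIs -0.74 (adjusted p = 0.0652), and with 2 co-receptor UMIs asked of a cell -0.77 (adjusted p = 0.135).

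Follicular helper T cells are known to use TOX2, and regulatory T cells carry PD-1 as well, so Cd4 T cells were also split by a Foxp3 UMI (the regulatory lineage factor) and a Cxcr5 UMI (the follicle-homing receptor). In Cd4 T cells with neither, Tox stood at 103 and 151 against 130.0 and 85.8 CPM without and 339 and 315 against 304 and 231 CPM with a Pdcd1 UMI. In the Foxp3-bearing cells Nr4a1 stood at 616 and 552 against 633 and 587 CPM without and 445 and 425 against 700.1 and 668 CPM with one. Nr4a2 in the Foxp3-bearing cells stood at 130.0 and 122 against 171 and 111 CPM without and 143 and 147 against 234 and 315 CPM with one, higher in both control pools than in both Runx1::Runx1t1 pools in the latter case. With Foxp3- and Cxcr5-bearing cells left out, a choice made after the data were seen, the log2 fold changes were 1.26 for Tox, 2.35 for Tox2, 0.89 for Nr4a2 and -0.78 for Nr4a1, and all 4 passed.

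Clone size, the number of kept cells of a pool with the same TRA and TRB chains, was set against the members in the same way. Cd8 T cells of clones of 5 or more cells numbered 1018 and 2227 against 139 and 378, of which 632 and 1953 against 0 and 92 were in clones of 20 or more. In clones of 1 cell (4146 and 3088 against 4349 and 4715 cells) Tox stood at 41.5 and 51.9 against 50.9 and 42.6 CPM, with overlap between the groups. In clones of 2 to 4 cells it stood at 90.8 and 213 against 75.2 and 57.6 CPM and in clones of 5 to 19 cells at 169 and 343 against 98.0 and 90.3 CPM. In clones of 20 or more it was 259 and 472 CPM in the Runx1::Runx1t1 pools and 30.7 CPM in replicate 2 of the control group; replicate 1 of that group had no such clone. Each step up in clone size had a higher Tox level in both Runx1::Runx1t1 pools. Both control pools also rose at each step up to clones of 5 to 19 cells. In the only control pool with clones of 20 or more, those 92 cells held the lowest level.

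**Figure D2:**
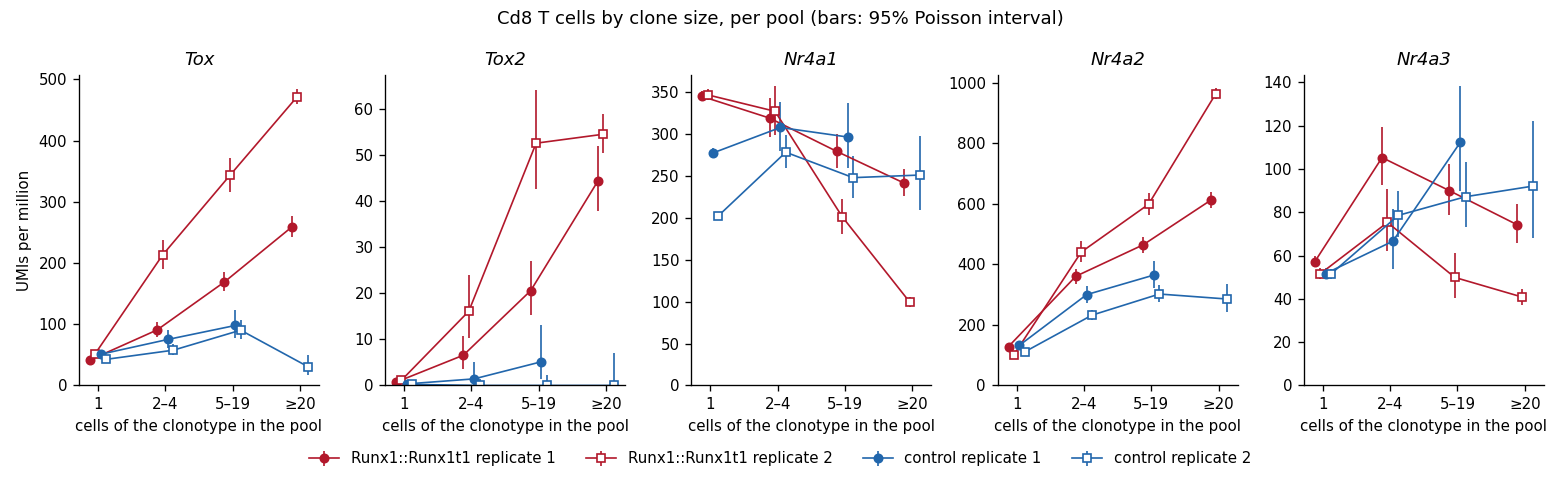
CPM of each member in Cd8 T cells by the number of cells of their clonotype in the pool, 1 line per pool (red, Runx1::Runx1t1; blue, control; filled, replicate 1; open, replicate 2), bars for the 95% Poisson interval. Tox, Tox2 and Nr4a2 climb with clone size in the Runx1::Runx1t1 pools. Tox and Nr4a2 also climb from 1 to 5–19 cells in the control pools. Within the Runx1::Runx1t1 pools Nr4a1 is lowest in the largest clones.

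Nr4a2 was higher in clones of 2 or more cells than of 1 in all 4 pools. In clones of 1 cell it stood at 129 and 101 against 132 and 111 CPM, in clones of 2 to 4 cells at 361 and 441 against 300.1 and 232 CPM and in clones of 5 to 19 cells at 465 and 599 against 365 and 302 CPM. In clones of 20 or more it was 612 and 965 CPM in the Runx1::Runx1t1 pools, higher again, and 286 CPM in replicate 2 of the control group, below its level in clones of 5 to 19. The Tox2 level was 0.719 and 1.13 against 0.337 and 0.221 CPM in clones of 1 cell and 20.6 and 52.6 against 5.16 and 0 CPM in clones of 5 to 19 cells, the 0 in replicate 2 of the control group standing for no UMI among 1572076, with an exact 95% Poisson upper bound of 2.35 CPM. Nr4a1 in clones of 1 cell stood at 345 and 347 against 278 and 203 CPM. In clones of 20 or more cells it was 241 and 99.6 CPM in the Runx1::Runx1t1 pools and 251 CPM in the control pool that had them. Nr4a3 was higher in clones of 2 to 4 cells (105 and 75.3 against 66.6 and 78.5 CPM) than of 1 (57.1 and 51.5 against 51.7 and 51.5 CPM) in all 4 pools, and in clones of 5 to 19 cells (89.9 and 49.9 against 112 and 87.1 CPM) higher still in the control pools but not in the Runx1::Runx1t1 pools.

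Clones of 5 or more cells against clones of 1 cell gave log2 fold changes of 1.60 ± 0.38 (SE), adjusted p = 0.0247, for Tox, 4.67 ± 0.61 (SE), adjusted p = 0.00303, for Tox2 and 1.75 ± 0.28 (SE), adjusted p = 0.00579, for Nr4a2. Nr4a1 was at -0.71 ± 0.30 (SE), adjusted p = 0.132, and Nr4a3 at 0.19 ± 0.22 (SE), adjusted p = 0.552. The 3 members called compare with 23.9% of the 12679 genes tested (1441 higher and 1587 lower, or 4252 and 913 on total UMIs, which move the median of all genes by 0.30). When Runx1::Runx1t1 replicate 1 was left out the Tox value was 1.38 with adjusted p = 0.128, with the limit set at 2 cells in place of 5 it was 1.41 (adjusted p = 0.0549), and without replicate 2 of that group Nr4a3 was at 0.48 with adjusted p = 0.0190. Summing all cells of a clone weights the largest clones most. With 1 cell per clonotype the log2 fold changes were 1.79 for Tox, 4.59 for Tox2, 1.62 for Nr4a2 and -0.71 for Nr4a1, each with an adjusted p under the threshold.

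A Pdcd1 UMI was more frequent in large clones in every pool. It was seen in 34.0% and 71.8% against 15.8% and 6.88% of cells in clones of 5 or more. In clones of 1 cell the shares were 2.65% and 4.15% against 0.989% and 0.976%. Each split was therefore also read within the other. A cell without a Pdcd1 UMI may still hold Pdcd1 RNA that was not captured, so Pdcd1 status is held only in part. In replicate 2 of the Runx1::Runx1t1 group, clones of 5 or more cells gave 627 cells without such a UMI. Of these, 196 belonged to the clonotype TRAV6-6 with TRBV1, in which 897 of 1093 cells held one. Among cells without a Pdcd1 UMI, Nr4a2 stood at 124 and 92.9 against 130.2 and 109 CPM in clones of 1 cell and at 457 and 759 against 356 and 280.4 CPM in clones of 5 or more. Tox in the same cells stood at 39.5 and 46.7 against 49.9 and 41.7 CPM in clones of 1 cell and at 118 and 328 against 89.7 and 68.2 CPM in clones of 5 or more. The log2 fold changes were 1.65 ± 0.24 (SE), adjusted p = 0.00161, for Nr4a2, 1.28 ± 0.30 (SE), adjusted p = 0.0152, for Tox, 4.15 ± 0.63 (SE), adjusted p = 0.00212, for Tox2 and 0.41 ± 0.13 (SE), adjusted p = 0.0474, for Nr4a3, with Nr4a1 at -0.38 ± 0.14 (SE), adjusted p = 0.0869. So 4 of 5 members were called without any Pdcd1 UMI in the cells, where 24.2% of the 12050 genes tested were (1392 higher and 1528 lower, or 4117 and 842 on total UMIs, which move the median by 0.29). The Nr4a3 call was lost when any 1 of the pools other than replicate 2 of the Runx1::Runx1t1 group was left out (adjusted p 0.145, 0.138 and 0.148), and that of Tox without replicate 1 of the Runx1::Runx1t1 group (adjusted p = 0.0660); without replicate 2 of that group the Tox value was 0.83. Nr4a1 passed without replicate 2 of the control group, at -0.52 (adjusted p = 0.0418). With thinning to 2000 UMIs Nr4a3 was at 0.36 (adjusted p = 0.151), with doublets kept at 0.39 (adjusted p = 0.0506), with DESeq2 at 0.42 (adjusted p = 0.0534) and with 1 cell per clonotype at 0.41 (adjusted p = 0.137).

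Within clones of 5 or more cells, Tox stood at 421 and 497 against 149.8 and 175 CPM in the cells with a Pdcd1 UMI, the control values coming from 22 and 26 cells. Nr4a1 stood at 117 and 76.6 against 290.3 and 315 CPM in these cells and at 330.4 and 223 against 298 and 244 CPM in those without a Pdcd1 UMI. All 5 members passed in this comparison, where 6.62% of the 9544 genes tested did (246 higher and 386 lower, or 290 and 294 on total UMIs). The log2 fold changes were 1.11 ± 0.18 (SE), adjusted p = 0.00158, for Tox, 1.95 ± 0.23 (SE), adjusted p = 0.000161, for Tox2 and 0.49 ± 0.11 (SE), adjusted p = 0.0100, for Nr4a2, and negative ones of -1.05 ± 0.23 (SE), adjusted p = 0.00989, for Nr4a1 and -0.57 ± 0.15 (SE), adjusted p = 0.0290, for Nr4a3. Leaving out Runx1::Runx1t1 replicate 1 put Nr4a1 at -0.72 (adjusted p = 0.215), Nr4a2 at 0.45 (adjusted p = 0.126) and Nr4a3 at -0.53 (adjusted p = 0.321); without replicate 2 of that group Nr4a1 was at -0.69 and Nr4a3 at -0.36 (adjusted p = 0.451). With 1 cell per clonotype, Tox was at 0.53 (adjusted p = 0.0703), Tox2 at 1.07 (adjusted p = 0.357), Nr4a2 at 0.37 (adjusted p = 0.106) and Nr4a3 at 0.05 (adjusted p = 0.993), so that Nr4a1 alone of the 5 still passed, at -0.91 (adjusted p = 0.00104). Thinning to 2000 UMIs ended the calls on Nr4a2, at 0.33 (adjusted p = 0.150), and Nr4a3, at -0.53 (adjusted p = 0.190). With doublets kept Nr4a1 was at -0.66 (adjusted p = 0.414), and DESeq2 called neither Nr4a1, at -0.78 (adjusted p = 0.360), nor Nr4a3, at -0.51 (adjusted p = 0.162). On total UMIs Nr4a3 was at -0.51 (adjusted p = 0.0585). With at least 2 Pdcd1 UMIs Tox was at 1.23 (adjusted p = 0.0598) and Nr4a2 at 0.51 (adjusted p = 0.0641).

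Among Cd4 T cells, Tox, Tox2 and Nr4a2 were higher in clones of 2 or more cells than in clones of 1. Tox stood at 110.5 and 144 against 132 and 106 CPM in clones of 1 cell, 164 and 218 against 303 and 199 CPM in clones of 2 to 4, 215 and 232 against 393 and 189.6 CPM in clones of 5 to 19 and 391 and 305 against 391 and 0 CPM in clones of 20 or more. Tox2 stood at 9.18 and 14.4 against 19.7 and 13.02, 17.9 and 26.8 against 68.6 and 35.2, 27.1 and 15.2 against 80.0 and 26.3 and 44.2 and 29.2 against 146 and 0 CPM in the same 4 sizes. Neither had a UMI in the largest clones of replicate 2 of the control group (exact 95% Poisson upper bound 43.1 CPM), and Tox2 in replicate 2 of the Runx1::Runx1t1 group was lower in clones of 5 to 19 than of 2 to 4, so not every step up in size had a higher level. Nr4a2 stood at 122 and 123 against 148 and 109 CPM in Cd4 clones of 1 cell and at 240.4 and 368 against 293 and 289.6 CPM in those of 5 to 19 cells. Nr4a1 in Cd4 clones of 20 or more cells stood at 148 and 195 against 514 and 386 CPM, the control values coming from 30 and 15 cells. Clones of 2 or more cells against clones of 1 cell gave log2 fold changes of 0.99 ± 0.10 (SE), adjusted p = 0.00102, for Tox, 1.37 ± 0.19 (SE), adjusted p = 0.00445, for Tox2 and 1.10 ± 0.09 (SE), adjusted p = 0.000394, for Nr4a2. The value of Nr4a1 was -0.53 ± 0.18 (SE), adjusted p = 0.122 (-0.75 with adjusted p = 0.0350 without replicate 2 of the control group), and that of Nr4a3 -0.17 ± 0.12 (SE), adjusted p = 0.448. These 3 calls stand beside 8.09% of the 10966 genes tested (390 higher and 497 lower, or 622 and 405 on total UMIs).

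The family's make-up differed between these cells. A UMI stands for 1 captured transcript whatever the gene's length, so the 3 genes' UMIs can be added and each one's share given; this is a description with no test. In Cd8 T cells of clones of 1 cell without a Pdcd1 UMI, Nr4a1 made up 65.8% and 70.9% against 60.4% and 55.8% of the family's UMIs and Nr4a2 23.5% and 18.9% against 28.4% and 30.1%. In cells of clones of 5 or more with a Pdcd1 UMI, Nr4a2 made up 80.3% and 89.6% against 51.7% and 56.2%. The share of Nr4a1 in those cells was 12.8% and 7.09% against 35.6% and 32.8%. Nr4a2 held the larger share in all 4 pools there, as Nr4a1 did in the former cells. The same cells held 87 and 137 Nr4a UMIs in the control pools.

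**Figure D3:**
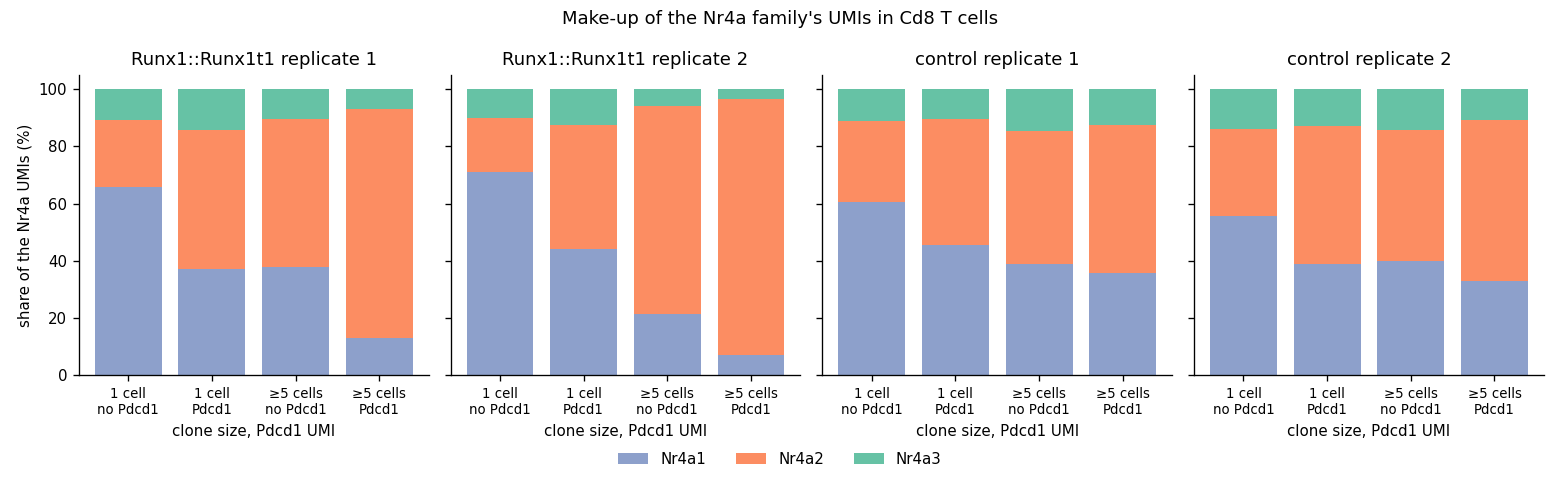
Share of the summed Nr4a1, Nr4a2 and Nr4a3 UMIs (y axis, percent, from 0) held by each gene in Cd8 T cells of clones of 1 or of 5 or more cells without and with a Pdcd1 UMI, 1 panel per pool. Nr4a2 grows from 18.9% to 89.6% in replicate 2 of the Runx1::Runx1t1 group and from 30.1% to 56.2% in replicate 2 of the control group.

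Single clonotypes differed in these genes. There were 31 clonotypes with at least 20 Cd8 T cells in a pool, 13 in replicate 1 and 14 in replicate 2 of the Runx1::Runx1t1 group, none in replicate 1 and 4 in replicate 2 of the control group. They were sorted by the share of their cells with a Pdcd1 UMI, with limits of 50% and 25% set after the values were seen, and the ranges below are descriptions. In 16 clonotypes, all in the Runx1::Runx1t1 group, at least 50% of cells had a Pdcd1 UMI. Their Tox levels ran from 313 to 611 with a median of 454 CPM. Their Nr4a2 levels ran from 353 to 1222 with a median of 714 CPM, and those of Tox2 from 8.62 to 155 with a median of 70.8 CPM. The Nr4a1 levels ran from 47.1 to 171 with a median of 83.1 CPM.

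The 13 clonotypes with under 25% of such cells, 9 from the Runx1::Runx1t1 group and 4 from the control group, had Tox levels from 0 to 208 with a median of 26.8 CPM. Tox2 was at 0 in 9 of the 13. Nr4a1 ran from 174 to 505 with a median of 347 CPM, wholly above the range of the first set, and Tox wholly below it. Nr4a2 overlapped: it ran from 235 to 783 with a median of 449.6 CPM in those of the Runx1::Runx1t1 group and from 172 to 424 with a median of 272 CPM in those of the control group, and a clonotype of 165 cells with a Pdcd1 UMI in 9.09% of them held 783 CPM of Nr4a2 beside 146 of Tox. Nr4a3 ran from 69.0 to 145 with a median of 87.8 CPM here and from 10.8 to 94.8 with a median of 42.0 CPM in the first set. Between the limits lay 2 clonotypes, 1 of which, with 21 cells, had the highest Nr4a1 level of all, 858 CPM. Of the 31 clonotypes, 1 also had cells in another pool.

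**Figure D4:**
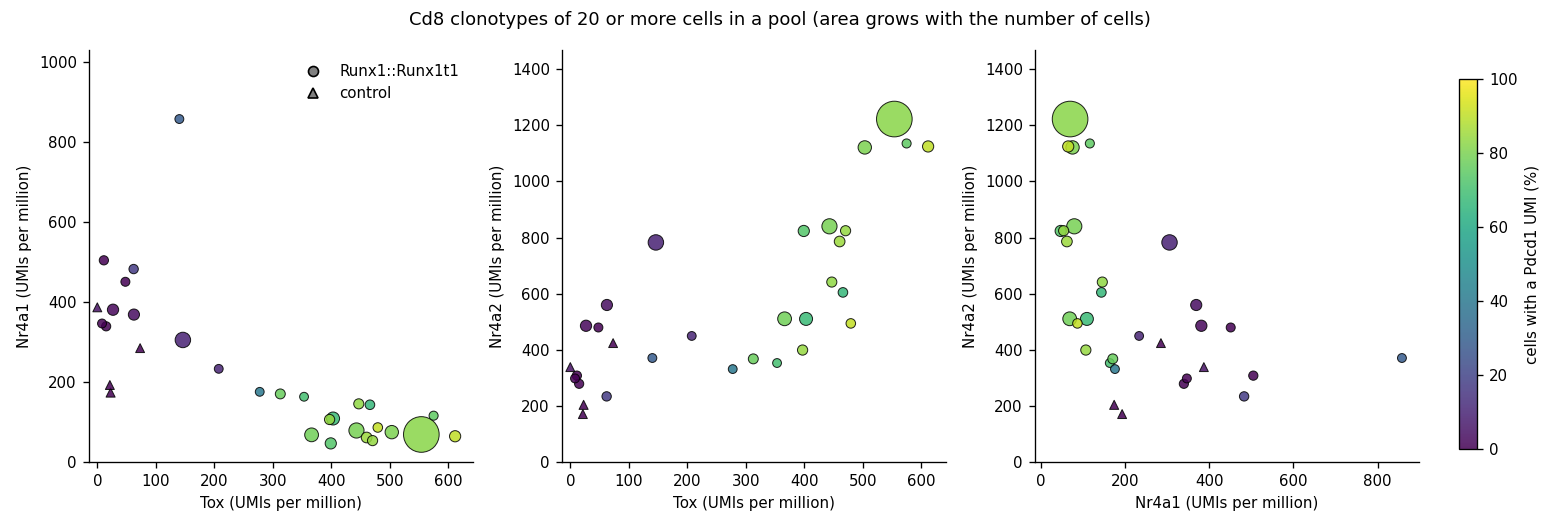
Each point is a clonotype with at least 20 Cd8 T cells in a pool (circles, Runx1::Runx1t1; triangles, control), placed by the CPM of Tox against Nr4a1, Tox against Nr4a2, and Nr4a1 against Nr4a2. Color gives the percent of its cells with a Pdcd1 UMI and area grows with its cells. Clonotypes rich in Pdcd1 lie at high Tox and low Nr4a1, and Nr4a2 spans both kinds.

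The largest clonotype, TRAV6-6 with TRBV1, had 1093 Cd8 T cells in replicate 2 of the Runx1::Runx1t1 group, 897 of them with a Pdcd1 UMI. Its levels were 554 CPM for Tox, 40.3 for Tox2, 69.4 for Nr4a1, 1222 for Nr4a2 and 33.9 for Nr4a3. The largest of replicate 1, TRAV9D-3 with TRBV17 and 111 cells, was alike in Nr4a2 (1121 CPM) and Tox (503 CPM). Leaving out the largest clonotype of each pool, of whatever lineage (1093 Cd8 T cells in replicate 2 of the Runx1::Runx1t1 group and 3 in replicate 2 of the control group), left 3 of 5 members past the threshold in the Cd8 comparison by Pdcd1 UMI. Cells with and without a Pdcd1 UMI were also compared within a clonotype, as a description. Within TRAV6-6 with TRBV1, Tox was 557 CPM in the 897 cells with and 537 in the 196 cells without, Nr4a2 1235 and 1157, Nr4a1 68.3 and 75.0, and Tox2 43.5 and 24.4. Over the 9 clonotypes with at least 10 cells of each kind, Tox was higher with a Pdcd1 UMI in 7, with a median ratio of 1.11, and Nr4a2 in 6, with a median ratio of 1.13. Nr4a1 was lower in 7, with a median ratio of 0.848. Tox2, on few UMIs, was higher in 7, with a median ratio of 1.42.

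Between the groups, the members were called most often in Cd8 T cells with a Pdcd1 UMI. There, 4 of 5 members passed, where 4.34% of the 9515 genes tested did. In these cells Tox (318 and 439 against 126 and 163 CPM) and Nr4a2 (589 and 836 against 288 and 337 CPM) were higher and Nr4a1 (174 and 116 against 354 and 254 CPM) lower in both Runx1::Runx1t1 pools than in both control pools. The log2 fold changes between the groups were 1.33 ± 0.18 (SE), adjusted p = 0.0123, for Tox, 2.78 ± 0.33 (SE), adjusted p = 0.00812, for Tox2, 1.12 ± 0.17 (SE), adjusted p = 0.0149, for Nr4a2 and -1.14 ± 0.24 (SE), adjusted p = 0.0398, for Nr4a1, while Nr4a3 was at -0.45 ± 0.28 (SE), adjusted p = 0.396. Nr4a3 passed too once Runx1::Runx1t1 replicate 1 was left out, at -0.88 (adjusted p = 0.00299). The 4 calls were lost when either control pool was left out, as were those on all other genes tested, with 1 control pool remaining. Without replicate 1 the values were 1.15 for Tox, 3.78 for Tox2, 1.01 for Nr4a2 and -0.87 for Nr4a1. Without replicate 2 they were 1.53, 2.27, 1.24 and -1.34. With 1 cell per clonotype (185 and 212 cells against 63 and 77), none passed either, and the values were 0.58 for Tox, 1.18 for Tox2, 0.41 for Nr4a2 and -0.10 for Nr4a1. None passed with thinning to 2000 UMIs, where Tox was at 0.63 (adjusted p = 0.414), Nr4a2 at 0.83 (adjusted p = 0.303) and Nr4a1 at -1.28 (adjusted p = 0.303). Of all genes tested, 36 of 7664 passed with 1 cell per clonotype and 4 of 4958 with thinning. With at least 2 Pdcd1 UMIs asked of a cell, Tox2 was at 2.15 (adjusted p = 0.0697) and Nr4a1 at -1.25 (adjusted p = 0.0820). Clone size was not held equal between the groups. Clones of 5 or more held 346 of 604 and 1600 of 2188 against 22 of 114 and 26 of 118 of the cells. In those of clones of 1 cell, not tested, Tox stood at 129 and 183 against 139 and 119 CPM. Tox2 stood there at 9.35 and 16.8 against 10.3 and 7.14 CPM. Nr4a2 was at 319 and 313 against 311 and 264 CPM and Nr4a1 at 243 and 318 against 322 and 212 CPM.

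**Figure D5:**
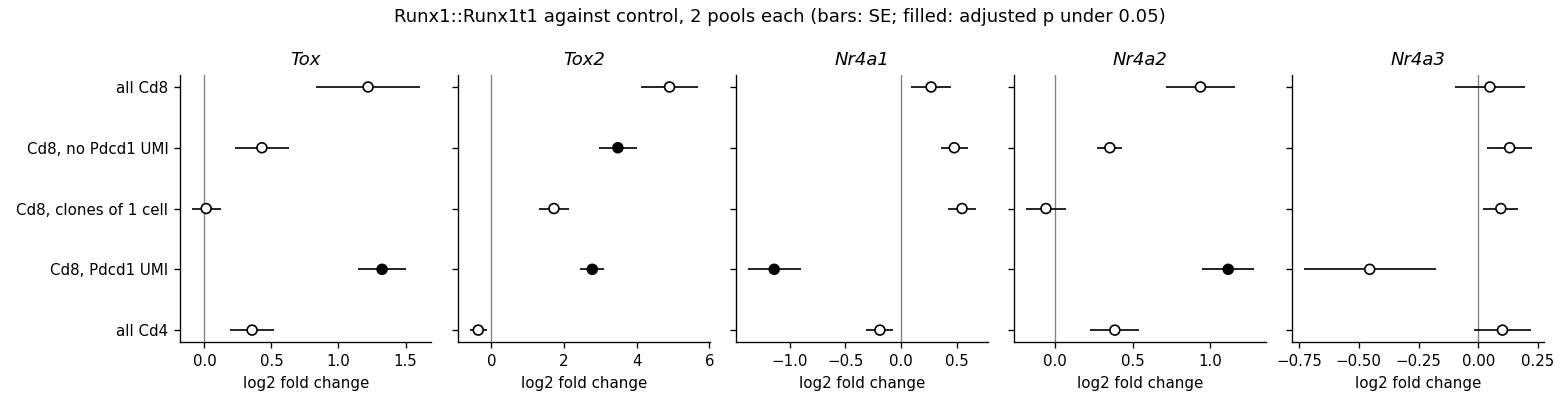
Log2 fold change (x axis) of each member, Runx1::Runx1t1 group against control group, in 5 sets of T cells (rows), with bars for the standard error and filled points for an adjusted p under 0.05 in edgeR's quasi-likelihood test. The 4 filled points among Cd8 T cells with a Pdcd1 UMI have Tox, Tox2 and Nr4a2 to the right of 0 and Nr4a1 to the left, and Tox and Nr4a2 lie close to 0 in clones of 1 cell. The x axes differ between panels.

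Fewer members were called in the other sets of cells. In all Cd8 T cells Tox stood at 67.7 and 174 against 52.8 and 45.1 CPM, Tox2 at 4.98 and 17.3 against 0.553 and 0.161 CPM and Nr4a2 at 199 and 343 against 143 and 125 CPM, each higher in both Runx1::Runx1t1 pools. None of the 5 members passed with edgeR (Tox 1.22 ± 0.39 (SE), adjusted p = 0.170; Tox2 4.90 ± 0.79 (SE), adjusted p = 0.0749; Nr4a2 0.94 ± 0.22 (SE), adjusted p = 0.115), although 3 had an unadjusted p under 0.05 and DESeq2 called 1; 0.12% of the 13330 genes tested were called by edgeR. DESeq2 called 868 of the 13330 genes. Without replicate 1 of the Runx1::Runx1t1 group Tox, Tox2 and Nr4a2 passed, and without replicate 2 Tox2 and Nr4a2 did. Each of these fits leaves 1 pool in that group and called a larger share of all genes, so 0.12% is not their background. In Cd8 T cells without a Pdcd1 UMI, 1 member passed where 4.34% of the 13074 genes tested did: Tox2, at 3.48 ± 0.52 (SE), adjusted p = 0.0234, on the log2 scale, which was lost without replicate 1 (adjusted p = 0.101) or replicate 2 (adjusted p = 0.0532) of the control group and with thinning to 2000 UMIs (adjusted p = 0.0570).

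In Cd8 T cells of clones of 1 cell, none of the 5 passed with edgeR, 2 had an unadjusted p under 0.05, DESeq2 called 0, and 5.08% of the 12543 genes tested were called by edgeR. The log2 fold change of Tox there was 0.01 ± 0.11 (SE), adjusted p = 0.963, and that of Nr4a2 -0.06 ± 0.13 (SE), adjusted p = 0.823. Nr4a1 lay higher in both Runx1::Runx1t1 pools than in both control pools, 345 and 347 against 278 and 203 CPM, at 0.55 ± 0.13 (SE), adjusted p = 0.0515 (0.78 with adjusted p = 0.0122 without replicate 1 of the control group). Tox2 was at 1.72 ± 0.40 (SE), adjusted p = 0.0523, on 27 and 33 UMIs against 11 and 8. In Cd4 T cells none of the 5 passed with edgeR or DESeq2, 1 had an unadjusted p under 0.05, and 2.11% of the 11640 genes tested were called by edgeR (161 higher and 85 lower, or 160 and 134 on total UMIs). In them Tox stood at 175 and 208 against 185 and 124 CPM and Nr4a1 at 485 and 388 against 536 and 492 CPM. The log2 fold changes in Cd4 T cells were 0.36 ± 0.16 (SE), adjusted p = 0.305, for Tox and -0.19 ± 0.12 (SE), adjusted p = 0.447, for Nr4a1. S100a8, an abundant neutrophil transcript, was lower in the Runx1::Runx1t1 group; its log2 fold change was -4.16 in Cd8 T cells with a Pdcd1 UMI and -4.30 in Cd4 T cells. Of the 7 myeloid genes, 3 of 5 tested were lower and 0 higher in Cd8 T cells with a Pdcd1 UMI, and 5 of 7 lower in those without. Their part in the values of the members was not tested.

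Genes linked to the members in T cells are described by counts, beside the all-gene median of -0.02 on the log2 scale and the 23.6% of genes called in the Cd8 comparison by Pdcd1 UMI. All 9 of 9 inhibitory receptor genes were higher in the cells with a Pdcd1 UMI, with a median of 2.47; Havcr2 4.27, Lag3 3.81 and Tigit 2.86 are examples (log2 fold change). Of 13 transcription factors that act beside TOX and NR4A in T cells, 8 were higher, 3 lower and 2 did not pass (median 0.61). Maf rose by 2.80 ± 0.21 (SE, log2 scale) and Prdm1, which encodes BLIMP-1, by 2.47 ± 0.11, whereas Tcf7, the factor of naive and stem-like T cells, was at -1.48 ± 0.39 and Id3 at -1.57 ± 0.39. Of the 7 calcineurin and NFAT genes 1, Nfatc1, was higher (0.99 ± 0.16) and 6 did not pass (median 0.02). Tox4, the ubiquitous paralog, did not pass, and Tox3 was too low to be tested.

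Nr4a1 belongs to the early response genes, which also react to cell dissociation. Of the 16 immediate early and dissociation genes listed, 8 were lower and 1 higher in Cd8 T cells with a Pdcd1 UMI (median -0.27), beside 23.6% of all genes called in either direction, with Jun at -1.19 ± 0.20, Zfp36 at -0.82 ± 0.17 and Ier3, in the other direction, at 1.38 ± 0.29. In Cd4 T cells 8 were lower and 0 higher (median -0.38), beside 12.9% of all genes. The interaction with the group, which was negative for Nr4a1, was also negative and past the threshold for 4 of them in Cd8 T cells, among them Jun (-1.04 ± 0.14) and Fos (-0.52 ± 0.11), and for 6 in Cd4 T cells, among them Egr2 (-1.67 ± 0.33), where 3.49% and 1.5% of all genes were called. Fos in Cd8 T cells with a Pdcd1 UMI stood at 233 and 259 against 448 and 477 CPM, and 330.2 and 436 against 485 and 517 CPM without. Of the 7 T cell activation genes, Tnfrsf9 (4-1BB) was higher with a Pdcd1 UMI (3.08 ± 0.18), and Myc (-1.29 ± 0.26) and Cd69 (-0.72 ± 0.15) were lower. Whether handling of the cells had a part in the early response genes was not tested. In Cd4 T cells 3 of 7 follicular helper genes were higher with a Pdcd1 UMI (Il21, Cxcr5 and Sh2d1a; median 1.02 beside 0.0022 for all genes), as were 7 of 9 inhibitory receptors. The lists were made with earlier results of these data known.

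Detection in the same cell was read within expanded clones. In Cd8 T cells of clones of 5 or more cells, thinned to 2000 UMIs, 20.6% and 12.5% against 25.9% and 39.6% of the cells with a Tox UMI (301 and 1254 against 27 and 53 cells) also held a Nr4a1 UMI. Among the cells without a Tox UMI the shares were 37.6% and 21.5% against 45.05% and 31.8%. They were lower with Tox in 3 pools and higher in replicate 2 of the control group. For Nr4a2 the shares were 66.4% and 79.7% against 51.9% and 49.1% with a Tox UMI and 57.3% and 70.0% against 39.6% and 35.2% without, higher with Tox in all 4 pools.

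Likeness was taken as Pearson's r of log2(CPM + 1) over the 16 sums of pool, lineage and Pdcd1 status, among the 7704 genes with a mean of at least 10 CPM; the sums share pools and are not independent, and the values are descriptions. The genes most like Tox were Ociad1 (r = 0.982), Ptms (r = 0.981) and Slc22a15 (r = 0.976). Those most like Tox2 were Gm45716 (r = 0.978), Slc22a15 (r = 0.977) and Med14 (r = 0.967). Those most like Nr4a1 were S1pr1 (r = 0.928), Irf2bp2 (r = 0.926) and Adk (r = 0.916), S1pr1 being the receptor through which T cells leave tissues. Nr4a2 went with Dnajc9 (r = 0.952), Serp2 (r = 0.950) and Prr5l (r = 0.946), and Nr4a3 with Ecm1 (r = 0.959), Il2ra (r = 0.949) and Gna13 (r = 0.947), Il2ra being the high-affinity chain of the IL-2 receptor. Among the members, r was 0.936 for Tox with Tox2, 0.810 for Tox with Nr4a2 and 0.783 for Nr4a1 with Nr4a3, but -0.633 for Nr4a1 with Nr4a2.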

How the data were processed

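Cells from 8 libraries of 4 pools (gene expression and T cell receptor, 10x 5′ chemistry) were analysed. The authors made the deposited counts, whole UMIs per gene and barcode, with Cell Ranger 6.1.2 on GRCm38, per the labels and the methods; the annotation release is not given in the sources used here. The deposited receptor tables give chains and UMI counts per barcode. Cells needed 200 or more genes and no more than 15% mitochondrial UMIs, and Scrublet's doublets were removed (4.22% to 5.40% per library; where the caller marked under 0.5%, the 5% with the highest scores). Median UMIs per kept cell were 6175 to 6328. The receptor pair of a cell was its TRA and its TRB chain with the most UMIs, and both were needed. No filter on productive chains was applied here to the deposited receptor tables. Counts were summed by pool and class and tested with edgeR 4.0.16 (filterByExpr, TMM, quasi-likelihood, Benjamini-Hochberg over all genes tested, threshold 0.05) in R 4.3.3, with the pool as a covariate within pools and the group otherwise. The SE beside an edgeR log2 fold change is the absolute change divided by the square root of the test's F statistic. DESeq2 1.42.0, other scalings, filters, cell definitions, each pool left out and a replicate block were alternatives. In the Cd4 T cells, leaving out Foxp3- and Cxcr5-bearing cells was added after the data were seen. Scripts were tested on simulated data, with scanpy 1.11.5 on Python 3.11.15. Promoters are RefSeq's. Cells were thinned to 2000 UMIs for shares, and intervals cover counting error only. Named genes were the members and, per list and comparison, at most 4 with the largest change among those past the threshold. The members and lists were chosen with earlier results of these data known. The labels do not say more of the replicates than that they are separate pools. The p-values between the groups measure the spread between 2 pools of a group. Those by Pdcd1 UMI, by clone size and of the interaction measure the spread of a contrast within pools from pool to pool. Part of either spread may be technical. Comparisons by Pdcd1 UMI and by clone size use the same pools and overlapping cells, so they are not independent of each other.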

Additional observations from a re-analysis of the deposited data

Results flagged for a closer look

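The contrast between cells with and without a Pdcd1 UMI differed between the groups by the interaction term in 4 cases. In Cd8 T cells the term was 0.97 for Tox, 0.80 for Nr4a2 and -1.59 for Nr4a1 on the log2 scale, and in Cd4 T cells it was -0.89 for Nr4a1. The pool values stand with the comparisons, together with settings under which a call was lost. Clone size was not held equal between the groups in these terms.

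For T cells outside both lineage classes, ratios of the mean CPM of the Runx1::Runx1t1 group to that of the control group are given, without a test. Members are listed only where both Runx1::Runx1t1 pools lay above both control pools. Among cells with a Cd3 UMI and no co-receptor UMI (3005 and 1925 in the Runx1::Runx1t1 pools against 4716 and 4445 in the control pools), Tox was 82.7 and 106 against 62.6 and 56.5 CPM, a ratio of 1.59. Tox2 was 3.75 and 5.79 against 1.36 and 1.46 CPM, a ratio of 3.38. Nr4a1 was 543 and 534 against 393 and 375 CPM, a ratio of 1.40, and Nr4a3 127 and 105 against 92.7 and 82.0 CPM, a ratio of 1.33. Among cells with UMIs of both co-receptors (591 and 750 against 202 and 207), Nr4a2 was 199 and 271 against 172 and 137 CPM, a ratio of 1.52. The order of the pools was thus the rule of choice and not a result, and the opposite order was not looked for. Among the values not listed, Nr4a2 in the cells with no co-receptor UMI was 234 and 200 against 260 and 214 CPM.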

How the results depend on the processing

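Of 939 values of a member under an alternative, 907 kept their sign and 32 did not; Tox, Tox2 and Nr4a2 passed under every alternative run in Cd8 and Cd4 T cells by Pdcd1 UMI. Members past the threshold with each pool left out in turn ranged over 0 to 3 in groups in Cd8, 0 to 5 in groups in Cd8 with Pdcd1, 0 to 1 in groups in Cd8 without Pdcd1, 0 to 1 in groups in Cd8 clones of 1, 0 to 4 in Cd8 interaction, 1 to 2 in Cd4 interaction, 2 to 5 in Cd8 clones of 5 or more by Pdcd1 and 2 to 4 in Cd8 without Pdcd1 by clone size; the pools concerned are named with the results. With DESeq2, the number of members past the threshold became 1 in groups in Cd8, 3 in groups in Cd8 without Pdcd1, 3 in Cd8 clones of 5 or more by Pdcd1 and 3 in Cd8 without Pdcd1 by clone size. With total UMIs, the number of members past the threshold became 1 in groups in Cd8 and 4 in Cd8 clones of 5 or more by Pdcd1. With no filter on low counts, the number of members past the threshold became 5 in Cd4 by Pdcd1, 4 in Cd4 by clone size, 2 in groups in Cd8, 4 in groups in Cd8 without Pdcd1, 2 in groups in Cd8 clones of 1, 4 in Cd8 interaction, 2 in Cd4 interaction and 5 in Cd8 without Pdcd1 by clone size. With thinning to 2000 UMIs, the number of members past the threshold became 5 in Cd8 by Pdcd1, 4 in Cd4 by clone size, 0 in groups in Cd8 with Pdcd1, 0 in groups in Cd8 without Pdcd1, 1 in groups in Cd8 clones of 1, 1 in Cd8 interaction, 0 in Cd4 interaction, 3 in Cd8 clones of 5 or more by Pdcd1 and 3 in Cd8 without Pdcd1 by clone size. With no doublet removal, the number of members past the threshold became 2 in groups in Cd8 clones of 1, 2 in Cd8 interaction, 4 in Cd8 clones of 5 or more by Pdcd1 and 3 in Cd8 without Pdcd1 by clone size. With 2 co-receptor UMIs, the number of members past the threshold became 2 in groups in Cd8 without Pdcd1, 1 in groups in Cd8 clones of 1 and 0 in Cd4 interaction. With 2 Pdcd1 UMIs, the number of members past the threshold became 5 in Cd8 by Pdcd1, 5 in Cd4 by Pdcd1, 2 in groups in Cd8 with Pdcd1, 2 in Cd8 interaction and 3 in Cd8 clones of 5 or more by Pdcd1. With the largest clonotype of each pool left out, the number of members past the threshold became 2 in groups in Cd8. With 1 cell per clonotype, the number of members past the threshold became 5 in Cd8 by Pdcd1, 4 in Cd8 by clone size, 4 in Cd4 by clone size, 1 in groups in Cd8, 0 in groups in Cd8 with Pdcd1, 2 in groups in Cd8 without Pdcd1, 1 in Cd8 interaction, 0 in Cd4 interaction and 1 in Cd8 clones of 5 or more by Pdcd1. With the clone size limits of Cd8 and Cd4 T cells exchanged, the number of members past the threshold became 2 in Cd8 by clone size. With a replicate block the number of members past the threshold was 1 in groups in Cd8, 0 in groups in Cd4, 4 in groups in Cd8 with Pdcd1, 3 in groups in Cd8 without Pdcd1 and 2 in groups in Cd8 clones of 1; same-numbered pools deviated together (correlation 0.185 to 0.524 across genes), but with 2 pairs and no label of a shared litter or batch the pools share only a number. The number of all genes called moved with the setting as well. In groups in Cd8 it was 16 of 13330 in the main fit, 864 of 19377 without the filter and 939 of 13330 with the block. Groups in Cd8 without Pdcd1 went from 567 to 1988 of 13074 with the block. Those with Pdcd1 went from 413 of 9515 to 4 of 4958 with thinning. A change in the members called is thus not by itself particular to them. The sign of Nr4a1 turned at these log2 values or within these ranges: 0.13 (1 cell per clonotype) in groups in Cd4. The sign of Nr4a2 turned at these log2 values or within these ranges: 0.18 (thinning to 2000 UMIs), 0.048 (2 co-receptor UMIs) and -0.27 to 0.12 (each pool left out in turn) in groups in Cd8 clones of 1, 0.059 (thinning to 2000 UMIs), 0.086 (2 Pdcd1 UMIs) and 0.024 (no Foxp3- or Cxcr5-bearing cell) in Cd4 interaction, -0.050 (1 cell per clonotype) in groups in Cd8 without Pdcd1. The sign of Nr4a3 turned at these log2 values or within these ranges: 0.16 (total UMIs), 0.37 (1 cell per clonotype) and -0.21 to 0.099 (each pool left out in turn) in Cd8 by Pdcd1, -0.18 to 0.25 (each pool left out in turn) in groups in Cd8, -0.084 to 0.26 (each pool left out in turn) in groups in Cd4, -0.020 to 0.27 (each pool left out in turn) in groups in Cd8 without Pdcd1, -0.0073 to 0.19 (each pool left out in turn) in groups in Cd8 clones of 1, 0.97 (thinning to 2000 UMIs) and 0.36 (1 cell per clonotype) in groups in Cd8 with Pdcd1, 0.99 (thinning to 2000 UMIs) and 0.14 (1 cell per clonotype) in Cd8 interaction, 0.045 (1 cell per clonotype) in Cd8 clones of 5 or more by Pdcd1. The sign of Tox turned at these log2 values or within these ranges: -0.0035 (total UMIs), -0.050 (thinning to 2000 UMIs), -0.0072 (2 co-receptor UMIs) and -0.13 to 0.15 (each pool left out in turn) in groups in Cd8 clones of 1, -0.0037 (the largest clonotype of each pool left out), -0.035 (1 cell per clonotype) and -0.15 to 0.27 (each pool left out in turn) in Cd4 interaction, -0.10 (thinning to 2000 UMIs) in Cd8 interaction. The sign of Tox2 turned at these log2 values or within these ranges: -0.71 to 0.12 (each pool left out in turn) in groups in Cd4, 0.19 (no Foxp3- or Cxcr5-bearing cell) in Cd4 interaction. The cause was not tested in any of these. Thinning and 1 cell per clonotype leave fewer UMIs and cells, and the control pools, with 114 and 118 Cd8 T cells with a Pdcd1 UMI, limit every comparison that uses them. A fit with the replicate block was not made within pools, where the pool is already a term.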

Other observations

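In Cd4 T cells with a Cxcr5 and a Pdcd1 UMI and no Foxp3 UMI, Tox2 was 36.3 and 34.5 CPM in the Runx1::Runx1t1 pools (22 and 40 UMIs in 92 and 140 cells) and 216 and 242 CPM in the control pools (26 and 21 UMIs in 20 and 15 cells). The 95% Poisson intervals, which cover counting error only, were 22.8 to 55.0 and 24.6 to 47.0 in the former and 141 to 316 and 150.0 to 370.3 in the latter. These cells were picked out after their values were seen, and the difference was not tested across pools.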
